A study of Rattus norvegicus with 5 samples.

Results

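Cytosolic ribosomal protein genes were examined in Müller cells, glia that span the whole retina, of normal and diabetic rats. They were taken as all probe sets whose single gene symbol begins with Rpl or Rps and a digit, or is Rpsa or Rplp0 to Rplp2, without the Rps6k kinases, whose symbols only resemble them. The choice used gene names and no measured value. It gave 43 of 4737 genes with a symbol of their own, read by 63 of 8799 probe sets. Of these, 42 probe sets belong to 29 genes of the large subunit and 21 to 14 genes of the small subunit. A further 38 probe sets list several symbols, all of them ribosomal protein genes or unnamed loci, and were kept apart.

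Total RNA of the cells was hybridised to 5 rat oligonucleotide arrays of 1 colour. All rats were male Sprague-Dawley rats, and each pool held the retinas of 12 animals. The normal group comprised 3 pools of healthy rats on 1 array each (normal arrays 1 to 3). The diabetic group was 1 pool on 2 arrays (diabetic arrays 1 and 2), since the labels call the second array a technical replicate, without saying whether both carried the same RNA. Its rats had received streptozotocin (streptozotozine in the labels), which kills pancreatic beta cells, and 6 months of diabetes had followed, with small insulin doses to keep them from wasting. Diabetes and its low-dose insulin treatment therefore cannot be told apart in this design, and the spread between diabetic pools was not measured.

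A ribosome is built of ribosomal RNA and one copy of most ribosomal proteins, divided between a large subunit, which joins amino acids, and a small subunit, which decodes the messenger RNA. Ribosomal protein messages are among the most abundant of a cell, and most begin with an uninterrupted run of pyrimidines, the 5′ terminal oligopyrimidine (TOP) tract. Through that tract the kinase mTOR, which responds to insulin and nutrients, controls how fast they are translated, a step that an array of total RNA does not measure.

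The start sites of these genes are shown first because the pyrimidine tract is the sequence feature that the family shares. The sequences are RefSeq's for rat assembly GRCr8, with 50 bases before and 20 bases after the annotated start, 5′ to 3′ on the transcribed strand. Capitals mark the longest run of C and T within the 20 bases on either side of the start. Only bases inside that window count, so a run that crosses its edge is cut there. In Rps6 a longer run that begins before the window is thus left in lower case. The 10 genes shown are a selection of those described below, made after their values were seen, with runs of different length. They include the reference genes Rplp0 and Rpl19 and the S6 kinase substrate Rps6. Also shown are Rpl27a, Rpl39 and Rps24, whose diabetic arrays lay outside the normal range on the probe set with a single symbol.
Rplp0, chr12:46718371-46718440, minus strand: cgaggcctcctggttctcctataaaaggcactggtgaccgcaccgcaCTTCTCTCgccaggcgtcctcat
Rpl19, chr10:83519014-83519083, plus strand: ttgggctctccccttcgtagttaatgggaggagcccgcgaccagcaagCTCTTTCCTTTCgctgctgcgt
Rpl27a, chr1:172974523-172974592, plus strand: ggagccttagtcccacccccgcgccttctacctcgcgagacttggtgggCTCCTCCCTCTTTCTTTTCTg
Rpl35a, chr11:81235002-81235071, minus strand: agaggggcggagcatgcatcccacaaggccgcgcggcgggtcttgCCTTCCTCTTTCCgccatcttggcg
Rpl39, chrX:121195877-121195946, minus strand: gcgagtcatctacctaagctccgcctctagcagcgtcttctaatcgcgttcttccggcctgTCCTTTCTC
Rpl41, chr7:1563478-1563547, minus strand: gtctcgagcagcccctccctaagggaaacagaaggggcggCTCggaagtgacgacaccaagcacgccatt
Rps6, chr5:106420521-106420590, minus strand: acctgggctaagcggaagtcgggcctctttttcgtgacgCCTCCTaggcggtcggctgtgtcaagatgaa
Rps15, chr7:10068096-10068165, minus strand: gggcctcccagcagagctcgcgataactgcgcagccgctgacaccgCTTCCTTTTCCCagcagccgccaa
Rps23, chr2:23814467-23814536, plus strand: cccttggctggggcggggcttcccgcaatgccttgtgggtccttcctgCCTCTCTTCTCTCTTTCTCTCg
Rps24, chr16:96467-96536, plus strand: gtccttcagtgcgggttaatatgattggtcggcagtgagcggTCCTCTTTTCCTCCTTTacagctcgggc

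Of the 43 member genes, 36 matched a promoter record by gene identifier. A run of at least 8 pyrimidines lay within 20 bases of the start in 24 of them (66.7%), against 15.0% of the promoters of 18969 other protein-coding genes. The run was 21 bases long in Rps23, 20 in Rpl27a and only 3 in Rpl41, whose annotated start thus shows no tract in this window. Its median length was 10.5 bases in the members and 5.0 in the other genes. The hexamer CTTTCC on the transcribed strand, which overlaps the run, stood near the start of 12 members (33.3%, against 1.91%).

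Other motifs were searched on both strands of the whole record, 250 bases before to 50 after the start. CCGGAAG, the core of an ETS factor site, was found in 9 of the 36 (25%, against 11.2%) and GGGCGG, the GC box, in 23 (63.9%, against 43.1%). TATAAA was found in 4 (11.1%, against 13.1%), among them Rplp0 and Rpl39. AAGATGGC, part of the YY1 site, was found in 4 (11.1%, against 3.91%). These matches describe letters and not binding.

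Signal was read as a level, the log2 of the intensity after quantile normalisation between arrays, with values below 20 set to 20 (a log2 floor of 4.32). Probe sets bright enough to be tested numbered 6118, among them 61 member probe sets for 42 genes. Each gene was read on its brightest tested probe set with 1 symbol, which gave 3623 genes. Probe sets differ in how strongly they bind, so levels are compared between arrays only. Both probe sets of Rps2-ps1, a pseudogene symbol of the small subunit, were too dim to be tested. One was at the floor on all 5 arrays, and the other had levels of 5.34, 4.49 and 4.32 on normal arrays 1 to 3 and 4.45 and 4.32 on the diabetic arrays.

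The deposited arrays were not on a common scale, since the highest 2% trimmed mean was 3.52 times the lowest. The actin 3′ to 5′ ratio, which rises as RNA degrades, reached 2.61 for normal array 1 and 2.55 for diabetic array 2 and lay between 1.46 and 1.76 elsewhere, while for GAPDH it ran from 1.03 to 1.35. Normal array 3 and diabetic array 2 share a day and a chip lot in the array records. Normal arrays 1 and 2 each have a day and a lot of their own. No day or lot was found for diabetic array 1, so its batch relative to diabetic array 2 is unknown. Of 12 Müller cell markers listed, 10 were measured, among them Glul and Slc1a3, and none was at the floor. Measured here means read by a probe set bright enough to be tested. Their summed intensity was 34797, 40396 and 45624 on normal arrays 1 to 3 and 40388 and 41257 on the diabetic arrays. In the pool 3 of these Müller cell markers lay above normal and 7 below. Photoreceptor markers, 7 of 12 measured, summed to 11699, 10682 and 5022 in normal and to 14553 and 15036 in diabetic cells. In the pool 7 of 7 lay above normal, where 49.2% of all genes did so. Leukocyte markers, 8 of 12 measured, summed to 1423, 1837 and 1625 in normal and to 2173 and 2461 in diabetic cells. In the pool 8 of 8 lay above normal. Of these, Coro1a had a normal mean of 4.52, under the brightness border of 4.68. It was tested only because its diabetic mean was 5.95, so its place above normal was fixed by that border. Both marker lists thus moved with the group. Of inner retinal neuron markers 1 lay above normal and 8 below, and of endothelial cell and pericyte markers 1 above and 5 below. The 2 erythrocyte markers measured lay above. The part of these lists in the results on ribosomal protein genes was not tested. In bulk RNA fewer cells of a type and less RNA per cell cannot be told apart.

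No ribosomal protein gene passed the test between diabetic and normal cells, and most differed little. In limma's fit, adjusted over all 6118 probe sets, 0 of 61 member probe sets had an adjusted p under 0.05, as had 0% of all tested probe sets. The lowest unadjusted p among the members was 0.268 and every adjusted p was 0.9999, and 0 members reached an unadjusted p under 0.05, which 98 of all probe sets did (73 above and 25 below normal). The median log2 difference, diabetic pool minus the mean of the normal pools, was -0.11 over 42 member genes (quartiles -0.19 and 0.02), with 12 genes above 0 and 30 below. Over all 3623 genes the median was -0.0080, with 1782 above and 1841 below. The pool lay within the range of the normal pools for 29 of 42 members (69.0%), against 63.7% of all genes.

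The small differences had a smaller standard error than in most genes. That error rests on the spread of the normal pools and on limma's prior, and no spread on the diabetic side enters it. The gap between the 2 diabetic arrays was not smaller in the same way. Its median absolute size was 0.33 in the members, 0.34 in all genes and 0.30 in other genes of like brightness. The 95% interval of the difference stayed within 2-fold either way for 30 of 42 members (71.4%), a property of 18.5% of all genes and of 46.5% of the 1179 other genes of like brightness. The median standard error was 0.27 in the members and 0.46 over all genes. The SD over the 3 normal pools had a median of 0.21 in the members, 0.26 in other genes of like brightness and 0.35 in all genes. It ran from 0.03 in Rpl36 and 0.04 in Rpl4 to 1.49 in Rpl17, genes named here after their values were seen. A 2-fold difference thus lay outside the interval of most members, whereas smaller differences of either sign lay within it. With 1 pool against 3 an exact permutation test cannot give a p below 0.25.

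**Figure D1:**
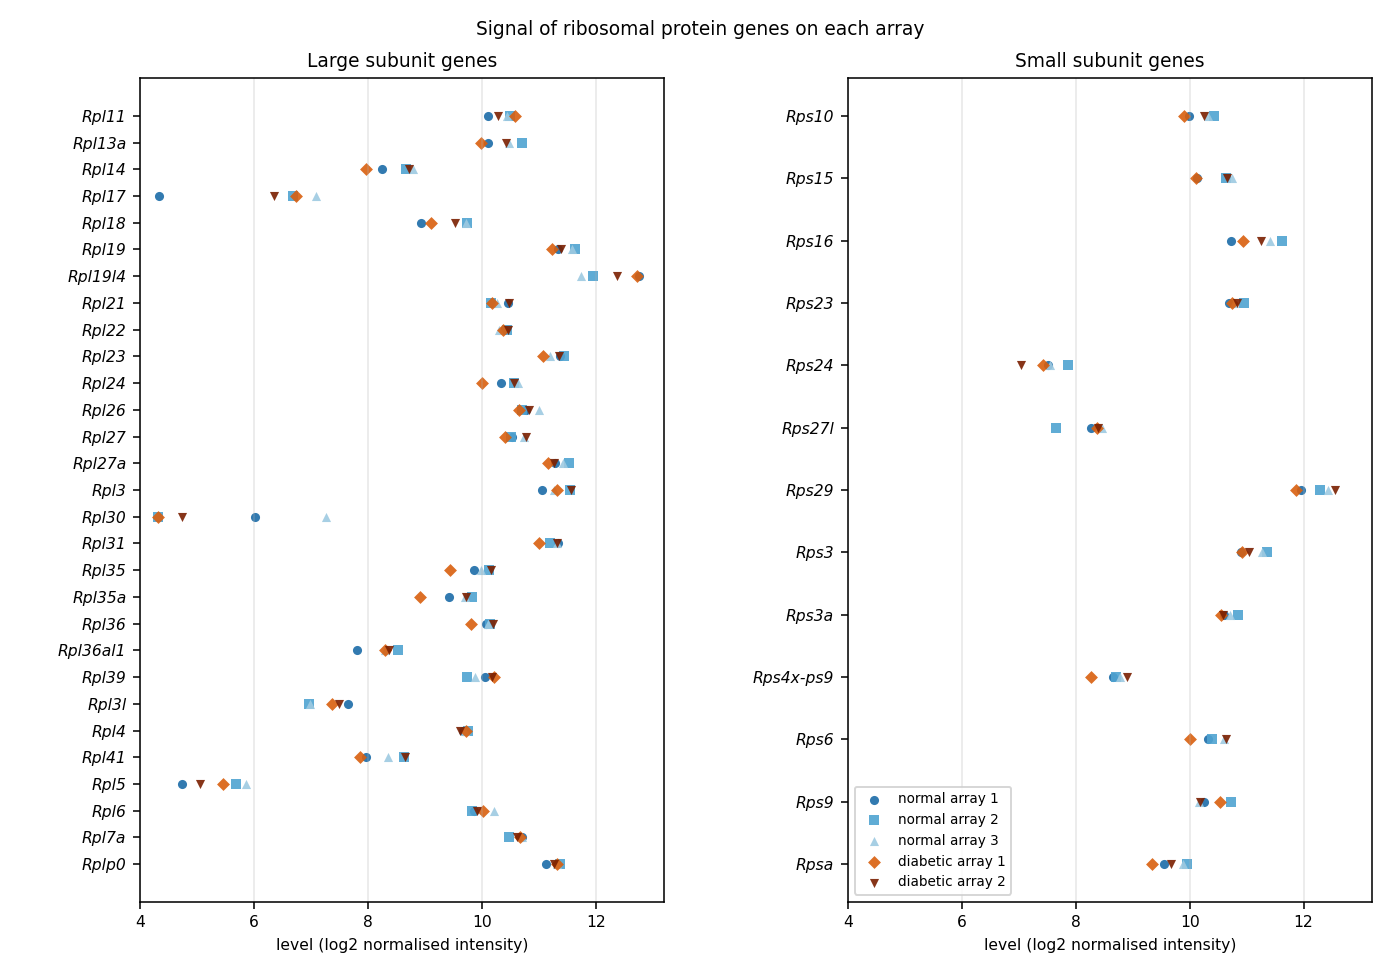
Level of each of the 42 tested ribosomal protein genes (log2 normalised intensity, 1 row per gene, large subunit left and small subunit right) on the 3 normal arrays (blue) and the 2 diabetic arrays (orange and brown), 1 point per array. In most rows the points lie close together and the diabetic points fall among or just below the normal ones, while Rpl17, Rpl30 and Rpl5 are dim and spread widely.

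The large subunit had a median log2 difference of -0.06 over 29 genes (quartiles -0.19 and 0.04), with 11 above 0 and 18 below. In 1 gene, Rpl39, both diabetic arrays exceeded every normal array, as they did in 9.83% of all genes. In 1 gene, Rpl27a, they were under every normal array, as in 7.01% of all genes. Neither count is above the share over all genes. The sign of the median rested on diabetic array 1, since without that array it was 0.056, with 21 genes above 0 and 8 below.

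Rplp0, which forms the base of the stalk that binds translation factors, is often used as a reference gene. Its levels were 11.13, 11.36 and 11.31 on normal arrays 1 to 3 and 11.31 and 11.27 on diabetic arrays 1 and 2. Both diabetic values lay inside the normal range, and the difference was 0.02 (SE 0.24). Rpl19, another common reference gene, was at 11.34, 11.64 and 11.59 in normal and at 11.23 and 11.39 in diabetic cells. Diabetic array 1 was thus the lowest of all, diabetic array 2 overlapped the normal arrays, and the difference was -0.21 (SE 0.25). Rpl13a, also used as a reference and known for a role in silencing inflammatory messages, was at 10.11, 10.70 and 10.47 in normal and 9.99 and 10.43 in diabetic cells. Its difference was -0.22 (SE 0.30) on the brighter probe set and -0.35 (SE 0.38) on the other, both within the error.

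Rpl39, a very small protein of the exit tunnel, was the gene above all normal arrays. It was at 10.06, 9.75 and 9.87 in normal and at 10.21 and 10.18 in diabetic cells. The diabetic arrays were alike, and the difference was 0.30 (SE 0.25). It did not pass limma's test. Its difference ran from 0.23 to 0.80 over the alternatives. The filters and fits among these alternatives cannot change the difference of a gene. With both diabetic arrays above every normal array, leaving out arrays could hardly change its sign either, so the constant sign is no further support. Rpl27a, with the longest tract among the large subunit genes shown, was at 11.29, 11.54 and 11.42 in normal and at 11.17 and 11.27 in diabetic cells. The gap to the lowest normal array was narrow and the difference was -0.20 (SE 0.24). The gene is named after its values were seen. A second probe set of Rpl27a, which lists 2 symbols, gave 0.27 (SE 0.49). There the diabetic arrays, at 8.62 and 8.74, lay among normal arrays at 7.73, 8.88 and 8.62.

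The lowest differences of the subunit belonged to Rpl30, Rpl35a, Rpl14 and Rpl24. Rpl30, whose yeast counterpart binds its own message, was at 6.02, 4.32 and 7.27 in normal and 4.32 and 4.73 in diabetic cells on a dim probe set. Normal array 2 and diabetic array 1 were at the floor, the normal arrays alone spanned the whole range, and the difference was -1.34 (SE 1.12). Rpl35a, known for mutations in Diamond-Blackfan anaemia, was at 9.43, 9.82 and 9.70 in normal and at 8.92 and 9.72 in diabetic cells. Only diabetic array 1 was low, while diabetic array 2 lay within the normal range (difference -0.33, SE 0.27). Rpl14 was also lowest on diabetic array 1, with 8.24, 8.68 and 8.80 in normal and 7.96 and 8.72 in diabetic cells (difference -0.23, SE 0.33). In Rpl24, which bridges to the small subunit, levels were 10.34, 10.57 and 10.64 in normal and 10.01 and 10.57 in diabetic cells (difference -0.23, SE 0.25). For these 3 genes the value below normal came from 1 of the 2 diabetic arrays.

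The highest differences belonged to Rpl17, Rpl19l4, Rpl39 and Rpl3l. Rpl17, a protein around the tunnel exit, had a dim probe set, with 4.33, 6.68 and 7.09 in normal and 6.74 and 6.34 in diabetic cells. Its difference of 0.51 (SE 1.12) was less than its error, and normal array 1 alone was low. Brighter probe sets that list Rpl17 among 4 symbols gave 0.02 (SE 0.25) and -0.09 (SE 0.48). Rpl19l4, a symbol that resembles Rpl19, had levels of 12.75, 11.95 and 11.75 in normal and 12.72 and 12.38 in diabetic cells. It was highest on normal array 1, where most members were low, and its probe set is of a type whose probes can bind several transcripts (difference 0.40, SE 0.44). Rpl3l, the paralog of Rpl3 that is best known from muscle, was at 7.64, 6.97 and 6.99 in normal and 7.36 and 7.49 in diabetic cells. Its probe sets disagreed, with a difference of 0.23 (SE 0.43) on the brighter and -0.68 (SE 0.56) on the dimmer.

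Rpl3, a core protein next to the catalytic centre, was one of the brightest, at 11.05, 11.55 and 11.27 in normal and 11.32 and 11.56 in diabetic cells. The groups overlapped, and its 2 probe sets gave 0.15 (SE 0.28) and 0.13 (SE 0.23). Rpl21 had 4 tested probe sets. The brightest was at 10.45, 10.17 and 10.26 in normal and 10.18 and 10.47 in diabetic cells, and the 4 differences ran from -0.06 to 0.13, all smaller than their errors. Rpl36al1, a near-name gene of Rpl36a, was at 7.80, 8.52 and 8.30 in normal and 8.31 and 8.36 in diabetic cells (difference 0.13, SE 0.37), so that both diabetic arrays lay within the normal range. Rpl41, which encodes one of the smallest known proteins, was at 7.97, 8.63 and 8.35 in normal and 7.86 and 8.65 in diabetic cells and is named after its values were seen. Its diabetic arrays were the lowest and the highest of the 5, and its difference was -0.06 (SE 0.35).

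**Figure D2:**
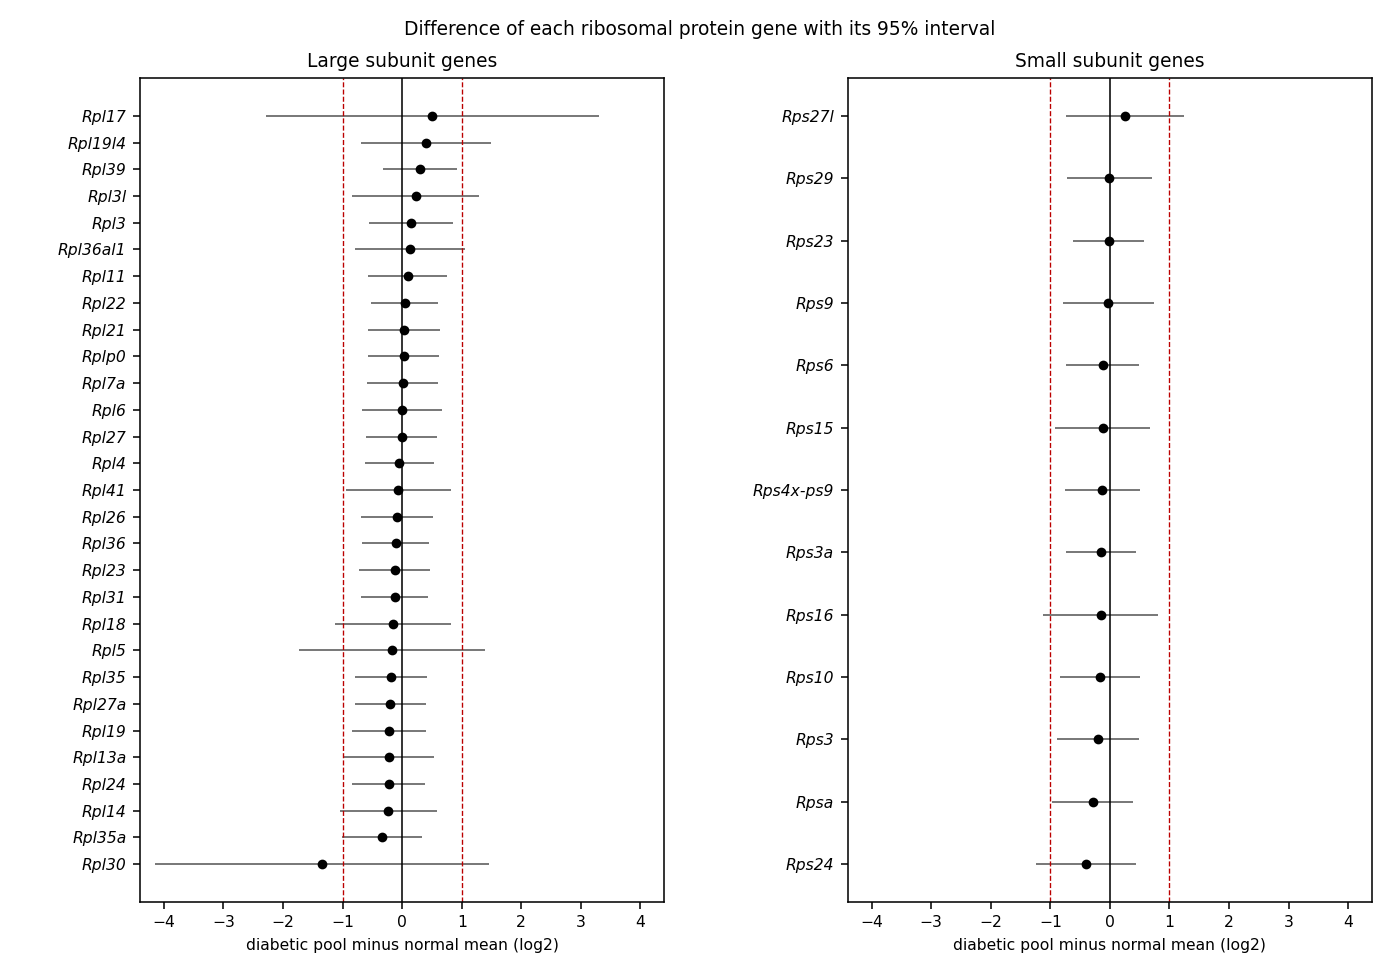
Log2 difference of each tested ribosomal protein gene, diabetic pool minus the mean of the 3 normal pools (points), with its 95% interval from limma's fit (lines), ordered by size, large subunit left and small subunit right. The dashed lines mark a 2-fold difference either way and 30 of the 42 intervals lie between them, whereas those of Rpl30 and Rpl17 are much wider.

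In the small subunit 12 of 13 genes lay below normal and 1, Rps27l, above. The median log2 difference was -0.13 (quartiles -0.17 and -0.03). Both diabetic arrays lay below all normal arrays for 2 of 13 genes, Rps24 and Rps3a, where 7.01% of all genes did so, and above for 0, where 9.83% did so. Whether the share below differs from that of all genes was not tested. Only 1 pool stands behind this count, and it depended on single arrays. Without diabetic array 1 the median was 0.0086 with 8 of 13 genes above 0, without diabetic array 2 it was -0.33 with 2 of 13 above 0, and without normal array 2 there were 5 of 13 above 0.

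Rps24, another gene mutated in Diamond-Blackfan anaemia, had the lowest difference of the subunit. It was at 7.52, 7.86 and 7.55 in normal and 7.42 and 7.05 in diabetic cells. Both diabetic arrays were lowest, and the difference was -0.41 (SE 0.34). A second probe set of Rps24, which lists 2 symbols, gave -0.11 (SE 0.27), with diabetic arrays at 10.61 and 10.37 among normal arrays at 10.35, 10.64 and 10.81. Rps3a, at the side of the mRNA exit, was at 10.61, 10.84 and 10.71 in normal and 10.55 and 10.58 in diabetic cells. Both diabetic arrays were below by a narrow gap, and the difference was -0.15 (SE 0.24). This gene, too, is named after its values were seen.

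Rpsa, also known as the laminin receptor, was at 9.56, 9.95 and 9.89 in normal and 9.34 and 9.68 in diabetic cells. Diabetic array 1 was lowest and diabetic array 2 overlapped, with a difference of -0.29 (SE 0.27), or -0.14 (SE 0.48) on the second probe set. Rps3, which also acts in DNA repair, was at 10.90, 11.36 and 11.27 in normal and 10.92 and 11.04 in diabetic cells. All diabetic values fell within the normal range, and the difference was -0.20 (SE 0.28) on one probe set and -0.19 (SE 0.37) on the other. Rps10, a protein of the small subunit's head, was at 9.99, 10.42 and 10.31 in normal and 9.90 and 10.25 in diabetic cells. Normal array 1 and diabetic array 1 were the low pair, and the difference was -0.17 (SE 0.27).

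Rps6, the substrate of the S6 kinases, was at 10.31, 10.40 and 10.61 in normal and at 10.01 and 10.64 in diabetic cells. Its diabetic arrays were the lowest and the highest of the 5, so the groups overlapped, and the difference was -0.12 (SE 0.25). The second probe set gave -0.20 (SE 0.28). Phosphorylation of the protein is not measured by these arrays.

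The brightest probe sets of the subunit belonged to Rps29, Rps16 and Rps3. Rps29, a small zinc-binding protein, was at 11.95, 12.29 and 12.43 in normal and 11.87 and 12.55 in diabetic cells. Here too the diabetic arrays were the lowest and the highest, and the difference was -0.01 (SE 0.29). Rps16, a protein near the decoding site, was at 10.73, 11.61 and 11.41 in normal and 10.94 and 11.25 in diabetic cells, inside a normal range of almost 2-fold (difference -0.16, SE 0.39). Rps15, in the head of the subunit, had 3 tested probe sets, and the brightest was at 10.13, 10.63 and 10.74 in normal and 10.11 and 10.65 in diabetic cells. The 3 differences were -0.12, 0.18 and 0.09 and thus differed in sign within their errors (SE 0.32 to 0.48).

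Rps23, which guards the accuracy of decoding, was among the least changed, at 10.69, 10.96 and 10.77 in normal and 10.74 and 10.84 in diabetic cells (difference -0.02, SE 0.24). Rps9, also tied to decoding accuracy, was at 10.25, 10.73 and 10.16 in normal and 10.53 and 10.18 in diabetic cells (difference -0.03, SE 0.31). All 4 diabetic values of these 2 genes lay within the normal range. Rps4x-ps9, a pseudogene symbol of Rps4x, was at 8.65, 8.70 and 8.77 in normal and 8.28 and 8.89 in diabetic cells. The diabetic arrays fell on either side of the tight normal arrays (difference -0.13, SE 0.25). Rps27l, a paralog of Rps27 that p53 induces, was at 8.27, 7.66 and 8.47 in normal and 8.38 and 8.40 in diabetic cells. Normal array 2 was low, the diabetic arrays lay within the normal range, and the difference was 0.26 (SE 0.40).

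Probe sets of the same ribosomal protein gene gave similar differences in most cases. Of 16 member genes with several tested probe sets, 4 had differences of both signs (25%; Rpl11, Rpl21, Rpl3l and Rps15), against 444 of 1014 other genes (43.8%). The median range between probe sets of a gene was 0.09 in the members and 0.32 in the other genes. Probe sets of a gene share the RNA and are not replicates.

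The arrays differed from one another in the members more than the groups did. Relative to the normal mean, the median level of the 42 genes was -0.13, 0.11 and 0.06 on normal arrays 1 to 3 and -0.23 and 0.05 on diabetic arrays 1 and 2, where all genes had medians between -0.0071 and 0.06. Diabetic array 2 was above diabetic array 1 for 31 of 42 members (73.8%), against 56.0% of all genes, and the gap was over 0.5 for 9 of them. The median difference between these 2 arrays of 1 pool was 0.21 in the members and 0.08 in all genes, larger in size than the -0.11 between the groups. Diabetic array 1 had the lowest level of the 5 for 20 members (47.6%), against 20.6% of all genes, and normal array 2 the highest for 17 (40.5%, against 17.1%). As a share of the summed deposited intensity, which needs no scaling, member probe sets held 3.61%, 4.51% and 4.45% on normal arrays 1 to 3 and 3.83% and 4.20% on the diabetic arrays. Normal array 1 and diabetic array 1 were thus low and normal arrays 2 and 3 high by this measure too. The actin ratios of the same arrays were 2.61, 1.52 and 1.46 in normal and 1.76 and 2.55 in diabetic cells. The 2 arrays with the highest member share had the lowest ratios. Within the diabetic pool the order was the other way, since diabetic array 2 had both the higher ratio and the higher share. The part of RNA quality, day or chip lot in these differences was not tested. With normal arrays 2 and 3 and diabetic array 1 alone, whose actin ratios were low, the median difference was -0.20 in the large and -0.47 in the small subunit. Between the 2 arrays of the shared day and lot, diabetic array 2 and normal array 3, it was -0.04 and -0.07.

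**Figure D3:**
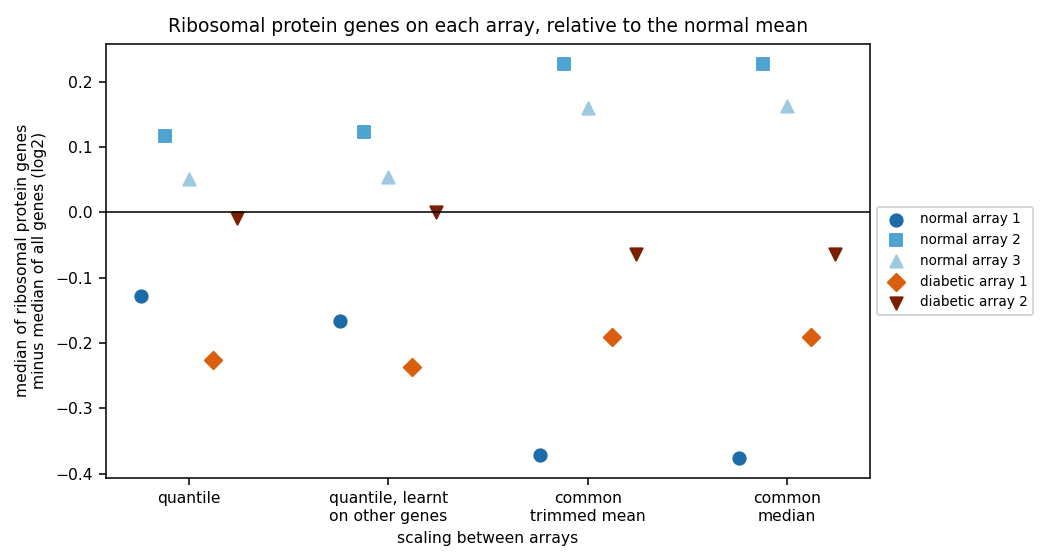
Median of the 42 ribosomal protein genes minus the median of all tested genes on each array (log2, relative to the normal mean), under 4 ways of scaling the arrays to one another. Normal array 1 and diabetic array 1 lie below 0 and normal arrays 2 and 3 above 0 under every scaling drawn, and diabetic array 2 stays near 0, but which array is lowest changes from diabetic array 1 (-0.23 and -0.24 under quantile scaling) to normal array 1 (-0.38 under a common median).

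Which array was lowest depended on the scaling. With arrays brought to a common median, normal array 1 was the lowest for 36 members and diabetic array 1 for 1, and with a common trimmed mean the counts were 23 and 13. Relative to all genes, the difference between the groups varied less. The median of the members minus that of all genes was -0.11 with quantile normalisation, -0.10 with a common median or trimmed mean and -0.07 with the deposited values unscaled. Unscaled values alone moved the median of all genes to 0.48 and that of the members to 0.41, with 41 of 42 above 0.

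Genes that act with the ribosome were read from lists of their own, described by counts and medians, and 0 genes of any of them passed limma's adjusted test. The 5 elongation factor genes, which carry the ribosome along the message and are themselves TOP genes, had a median difference of -0.32, with 1 above 0 and 4 below. Among them Eef2, the translocation factor, was at 10.91, 11.33 and 11.03 in normal and 10.63 and 10.91 in diabetic cells (difference -0.32, SE 0.27). Eef1g, a subunit of the exchange factor, was at 9.87, 9.90 and 9.81 in normal and 9.17 and 9.86 in diabetic cells (difference -0.35, SE 0.23). In both genes diabetic array 1 was the lowest, as it was for 4 of the 5 and for 20.6% of all genes. Counts of lowest arrays in these lists were made under quantile normalisation only. In the members such counts changed with the scaling.

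The 5 other ribosome-associated and TOP genes measured had a median of -0.28, with 1 above 0 and 4 below. Diabetic array 1 was the lowest for 5 of 5, against 20.6% of all genes, under quantile normalisation. Naca, a chaperone at the tunnel exit, was at 10.53, 10.18 and 10.11 in normal and 9.57 and 10.30 in diabetic cells (difference -0.34, SE 0.27). Hnrnpa1, an RNA-binding protein whose message has a TOP tract, was at 7.71, 8.01 and 8.18 in normal and 7.17 and 7.85 in diabetic cells (difference -0.46, SE 0.33). Again the 2 arrays of the diabetic pool differed by more than the groups.

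The 21 initiation factor genes had a median of -0.04, with 9 above 0 and 12 below. Eif4a2, a helicase that unwinds the start of messages, was at 10.04, 10.62 and 10.62 in normal and 9.37 and 9.57 in diabetic cells. Its probe set is of a type whose probes can bind several similar transcripts. Both diabetic arrays lay below every normal array, and the difference was -0.96 (SE 0.32), with an unadjusted p of 0.027 and an adjusted p of 0.9999 in limma's fit. Eif2ak2, the kinase PKR that halts initiation, was at 6.29, 6.32 and 6.57 in normal and 6.43 and 7.05 in diabetic cells (difference 0.34, SE 0.42), with overlapping groups.

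The 10 genes of ribosome biogenesis had a median of -0.15 (3 above 0, 7 below). Polr1d, a subunit of RNA polymerases that make ribosomal RNA, differed by -0.31 (SE 0.35) and Gnl3, a nucleolar GTPase, by -0.34 (SE 0.45), both within the error. The 14 mitochondrial ribosomal protein genes had a median of -0.15 (6 above 0, 8 below). Mrps6 was at 7.01, 7.15 and 7.49 in normal and 7.77 and 8.22 in diabetic cells (difference 0.78, SE 0.36), and Mrpl3 differed by -0.43 (SE 0.30). The 10 genes of the S6 kinases and the mTOR pathway had a median of 0.11 (7 above 0, 3 below), with Akt2, a kinase of insulin signalling, at -0.36 (SE 0.43) and Rictor, a subunit of the second mTOR complex, at 0.21 (SE 0.35).

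**Figure D4:**
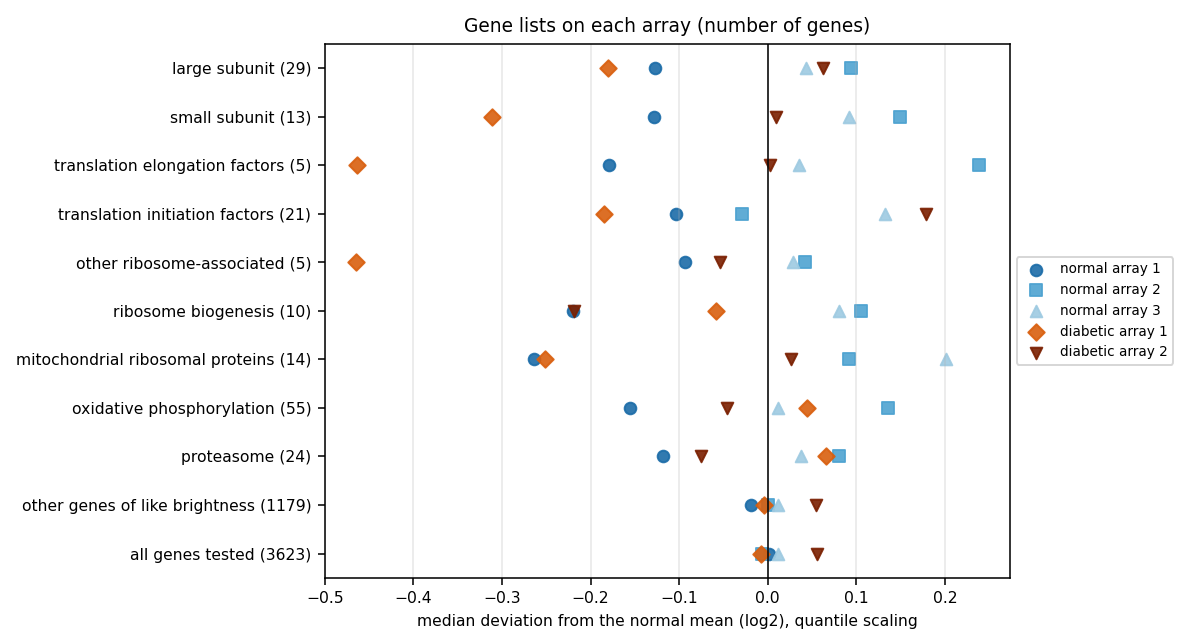
Median deviation from the normal mean (log2, quantile scaling) of each gene list on each array, with the number of genes in brackets. Diabetic array 1 lies lowest for both ribosomal subunits, the elongation and initiation factors and the other ribosome-associated genes, whereas other genes of like brightness and all genes tested stay near 0 on every array.

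Oxidative phosphorylation genes, another group of abundant messages, had a median difference of -0.04 over 55 genes (23 above 0, 32 below), and diabetic array 1 was the lowest for 18.2% of them. Proteasome genes had a median of -0.01 over 24 genes (12 above 0, 12 below), and diabetic array 1 was the lowest for 8.33%. In these lists normal array 1 was the lowest most often, for 34.5% and 41.7%. Over all genes the shares were 20.6% for diabetic array 1 and 24.0% for normal array 1. Whether the list shares differ from those of the ribosomal protein genes was not tested, and other scalings were not run for these lists.

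Grouped by the length of their pyrimidine run inside the window of 20 bases on either side of the start, the members had similar medians, with no test made. The 24 genes with a run of at least 8 bases had a median difference of -0.13, with 8 above 0 and 16 below, and the 12 genes with a shorter run had a median of -0.10, with 3 above 0 and 9 below. Between the diabetic arrays the medians were 0.13 and 0.27. Rps23, with the longest run, differed by -0.02 between the groups, and Rpl41, with one of the shortest, by -0.06.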

How the data were processed

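The deposited values are 1 linear intensity per probe set and array. How the authors summarised and scaled them is not given in the sources used here. Array records deposited by the authors, which hold other kinds of entries, served to place arrays by day and lot. The members and gene lists were chosen with earlier results of these data known. From these intensities, values were quantile-normalised, floored at 20 (or at the 20th percentile where higher) and then log2-transformed. Left out were 59 controls and then the dimmest 30%. The 2 diabetic arrays were averaged into 1 pool. The pool was compared with 3 normal pools in limma 3.58.1 (R 4.3.3; lmFit, eBayes with trend, Benjamini-Hochberg adjustment over 6118 probe sets, two-sided), with 2 residual and 3.54 prior degrees of freedom. The lone pool is assumed to vary like the normal pools, and the number of arrays limits the precision.

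Symbols came from the platform annotation. Of 8740 probe sets 7006 had 1 symbol, 308 several and 1426 none; 6994 matched a RefSeq gene table of assembly GRCr8 and 0 symbols changed. Coordinates and sequences are RefSeq's. Genes of like brightness had mean levels from 7.52 to 11.31. Members named by rule were, in each subunit, the 4 highest and 4 lowest differences and the 3 brightest genes. Genes with 3 or more tested probe sets, reference genes, genes with other roles, near-name genes and genes at the floor in a group were added. From each other list, the 2 genes with the largest moderated statistic were named. Outside this rule, Rpl27a, Rps3a, Rpl36, Rpl4 and Rpl41 were named after their values were seen. The limma step was tested on simulated data, where it called few of the changed probe sets and none of those changed by 2-fold, so that a lack of calls does not show a lack of change. Alternatives were other scalings, floors, filters, gene summaries and fits, and leaving out each array. Figures were drawn with matplotlib 3.10.9.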

Additional observations from a re-analysis of the deposited data

How the results depend on the processing

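No member probe set passed limma's adjusted threshold under any alternative that gives a count (0 of 61 as reported). Over all probe sets 0 passed as reported, 170 passed without the filter on dim probe sets, where values at the floor have no spread, and 13 passed with the 5 arrays as separate samples. The large subunit median of -0.06 became 0.43 with the deposited values unscaled, -0.20 with only the 3 arrays of low actin ratio (chosen after seeing the data) and 0.056 without diabetic array 1, and leaving out 1 array gave -0.17 to 0.056. The small subunit median of -0.13 became 0.40 unscaled, -0.47 on the low-ratio arrays and -0.33 without diabetic array 2, and leaving out 1 array gave -0.33 to 0.0086; the cause was not tested. The other scalings, floors, filters and probe set choices moved these medians by less than the spread between normal arrays, and the fits could not move them. Of 486 single-gene values over 26 genes and 19 alternatives, 53 moved by more than the normal SD and 59 changed sign. Wherever they had a value, 3 genes kept their sign, Rpl39 under 19 alternatives, Rpl19l4 under 18 and Rpl30 under 17. The filters and fits among the alternatives cannot change the difference of a gene, and the floors can change only dim values. These counts thus hold values that could not move. The sign of Rpl39 could also hardly change when arrays were left out, since both its diabetic arrays exceeded every normal array. The 2 arrays of a shared day leave no degrees of freedom for a count. No paired analysis was possible because the second diabetic array is a technical repeat of 1 pool, so that shared replicate numbers do not pair pools.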

Other observations

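The 38 probe sets that list several symbols, all ribosomal protein genes or unnamed loci, cover some proteins that the 43 genes do not. Others list a gene of the 43, such as Rpl17, Rpl27a, Rpl30 or Rps24. Of the 38, 37 were bright enough to be tested. None had an adjusted p under 0.05 in limma's fit, which rests on 3 normal pools and 1 diabetic pool. Of the 37, 12 lay above and 25 below normal, with a median log2 difference of -0.08. The pool lay within the normal range for 29, as it did for 63.7% of all genes. Both diabetic arrays lay above every normal array for 1 and below for 2, where 9.83% and 7.01% of all genes did so. Neither of these counts exceeds the share over all genes. The reference genes Rps18 and Rpl32 are read only here. The Rps18 probe set was at 10.52, 11.17 and 10.92 on normal arrays 1 to 3 and 10.76 and 10.85 on the diabetic arrays (difference -0.06, SE 0.32), and that of Rpl32 at 10.58, 10.99 and 10.89 against 10.61 and 10.78 (difference -0.13, SE 0.27). In both the diabetic arrays lay within the normal range.

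The probe sets whose diabetic arrays lay outside the normal range are named after their values were seen. That of Rps25 lay above, at 9.77, 9.74 and 9.90 in normal and 10.03 and 10.06 in diabetic cells (difference 0.24, SE 0.23). That of Rpl23a lay below, at 8.67, 8.80 and 8.70 in normal and 8.39 and 8.45 in diabetic cells (difference -0.30, SE 0.26). A second probe set of Rpl30 also lay below, at 9.95, 10.01 and 10.03 in normal and 9.62 and 9.93 in diabetic cells (difference -0.22, SE 0.23). Its normal arrays spanned far less than those of the dim probe set of that gene, whose difference was -1.34 (SE 1.12).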
